A study of Mus musculus with 12 samples.

Results

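The complement genes followed here are 9 genes that microglia use to make or sense complement. They are *C1qa*, *C1qb* and *C1qc*, which encode the chains of C1q, the components *C3* and *C4b*, the properdin gene *Cfp*, the anaphylatoxin receptor genes *C3ar1* and *C5ar1*, and *Itgam*, which encodes CD11b. They were picked by symbol from a table of 48623 genes, and all 9 of 9 were found and lay above the expression limit (a mean log2(TPM + 1) over all libraries above 1.5). Primary microglia were cultured from the cortex and hippocampus of newborn C57BL/6J mice, either WT or with both copies of *Trem2* carrying the R47H knock-in (KI), which changes 1 residue of the microglial receptor TREM2 and in this mouse line also lowers *Trem2* mRNA. Cultures T13, T33 and T43 were WT and cultures T15, T22 and T32 were KI. From every culture an untreated library was made, and another after 48 h in 20 ng/ml IL-4, an anti-inflammatory cytokine, so that 12 libraries form 4 groups of 3. All cells were separated from mixed glial cultures by mild trypsinization, so that both genotypes share weeks of culture outside the brain. Values are TPM, transcript abundances scaled for transcript length and library total, which can be compared between genes.

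Complement is a cascade of plasma and tissue proteins that marks targets for removal. C1q binds a target and starts the classical pathway through the proteases C1r and C1s, C4 and C2, which leads to cleavage of C3. Properdin stabilizes the C3 convertase of the alternative pathway, in which the deposition of C3 fragments amplifies itself. Deposited C3 fragments are bound by complement receptor 3, the integrin of CD11b and the β2 chain encoded by *Itgb2*, and the released fragments C3a and C5a act on the receptors encoded by *C3ar1* and *C5ar1*. In the brain C1q is made mainly by microglia, and C1q, C3 and CD11b take part in the removal of synapses during development and in disease models.

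The genotype labels were borne out by *Trem2*, which differed between KI and WT by -1.43 on the log2 scale (standard error, SE, 0.19, limma F-test, adjusted p = 0.00763). The summed TPM of 18 markers of microglia and macrophages was 25083 to 26446 in untreated WT, 23626 to 30859 in IL-4-treated WT, 11169 to 23585 in untreated KI and 15849 to 22279 in IL-4-treated KI libraries. All 17 of the 17 markers that could be tested had lower means in KI, 3 of them past the threshold, and the mean over all 18 differed by -0.57 on the log2 scale (KI minus WT). Markers of astrocytes summed to 4788 and 3656 TPM in the untreated and treated libraries of KI culture T15, against 167 to 691 TPM in the other 10 libraries, which set T15 apart. Their sums ran from 167 to 691 TPM in untreated WT, 179 to 615 TPM in treated WT, 220 to 4788 TPM in untreated KI and 603 to 3656 TPM in treated KI. All 8 of the 8 astrocyte markers tested, of 10, had higher means in KI, and 0 passed the threshold (adjusted p, limma F-test, as in the other tests here). Markers of mural cells and fibroblasts summed to 704 to 1327 TPM in KI and 142 to 617 TPM in WT libraries, and 2 of the 5 tested passed the genotype test, all 5 having higher means in KI. Markers of the oligodendrocyte lineage summed to 143 to 547 TPM in KI and 69.5 to 151 TPM in WT libraries. Of the 7 tested, 5 had higher and 2 lower means in KI, and 1 passed the genotype test. Of 6 markers of neutrophils and lymphocytes, which also express *Itgam*, *C5ar1* or *Cfp*, 5 were below 1 TPM in every library, and the sum of all 6 did not exceed 14.9 TPM. In RNA from whole cultures, fewer microglia and less RNA per microglial cell cannot be told apart. TPM keeps no read counts, so that the depth behind a value is unknown.

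The 3 C1q genes lie side by side on chromosome 4 of GRCm38, all on the minus strand and within 18675 bp. *C1qb* (ENSMUSG00000036905) spans 136880129 to 136886187, *C1qc* (ENSMUSG00000036896) spans 136889804 to 136893065 and *C1qa* (ENSMUSG00000036887) spans 136895917 to 136898803. The gaps between them are 3616 and 2851 bp. Among the genes on either side, *Kdm1a*, at 18.3 to 61.7 TPM, passed neither limma F-test (adjusted p = 0.993 for IL-4 and 0.762 for genotype), *Ephb2* and *Zbtb40* did not exceed 8.18 and 3.83 TPM, and *Epha8* was listed at 0 in every library. The other members are dispersed. *C3* (ENSMUSG00000024164) lies on chromosome 17 from 57203970 to 57228136 and *C4b* (ENSMUSG00000073418) on the same chromosome from 34728380 to 34743882. *C3ar1* (ENSMUSG00000040552) lies on chromosome 6 from 122847138 to 122856161, *C5ar1* (ENSMUSG00000049130) on chromosome 7 from 16246743 to 16259540 and *Cfp* (ENSMUSG00000001128) on chromosome X from 20925454 to 20931555, all on the minus strand. *Itgam* (ENSMUSG00000030786) is on the plus strand of chromosome 7 from 128062640 to 128118491.

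The 250 bases before the annotated start are shown for *C1qb*, *Cfp* and *Itgam*, whose KI libraries all lay below the WT libraries of their treatment, and for *C3*, which rose most with IL-4. They are RefSeq sequences on GRCm38.p6, read from 5′ to 3′ on the strand of the gene, and capitals mark GAGGAA or its complement TTCCTC, the core bound by PU.1, a transcription factor that all microglia need.
C1qb chr4:136886201-136886450 (minus strand): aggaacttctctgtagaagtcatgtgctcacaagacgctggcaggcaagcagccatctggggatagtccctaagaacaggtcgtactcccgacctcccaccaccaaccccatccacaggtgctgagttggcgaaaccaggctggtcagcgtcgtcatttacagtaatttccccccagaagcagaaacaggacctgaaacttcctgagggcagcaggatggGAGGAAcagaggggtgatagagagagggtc
Cfp chrX:20931556-20931805 (minus strand): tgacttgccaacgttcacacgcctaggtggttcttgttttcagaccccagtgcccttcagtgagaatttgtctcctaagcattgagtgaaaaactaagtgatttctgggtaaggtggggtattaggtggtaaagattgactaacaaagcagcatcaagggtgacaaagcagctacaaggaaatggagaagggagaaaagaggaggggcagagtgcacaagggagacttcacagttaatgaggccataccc
Itgam chr7:128062390-128062639 (plus strand): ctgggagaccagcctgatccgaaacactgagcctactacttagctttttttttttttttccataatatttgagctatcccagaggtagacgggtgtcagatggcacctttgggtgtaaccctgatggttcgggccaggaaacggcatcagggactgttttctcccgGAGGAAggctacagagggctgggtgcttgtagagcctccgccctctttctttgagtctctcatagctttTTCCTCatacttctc
C3 chr17:57228137-57228386 (minus strand): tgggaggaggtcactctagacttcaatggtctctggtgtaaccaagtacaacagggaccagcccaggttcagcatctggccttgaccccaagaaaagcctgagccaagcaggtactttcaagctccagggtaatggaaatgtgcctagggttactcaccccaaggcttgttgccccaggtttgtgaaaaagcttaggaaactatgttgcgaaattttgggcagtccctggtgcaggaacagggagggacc
RefSeq windows were at hand for 7 members, all but *C1qa* and *C4b*. GAGGAA on either strand was present in 3 of these 7, at -30 before the start in *C1qb*, at -193 in *C1qc* and at -84 and -15 in *Itgam*, and in 23.4% of all 32536 windows. The *Cfp* and *C3* windows hold no match. The palindrome preferred by the IL-4-activated factor STAT6, with a spacer of 4 bases, was in 0 of the 7 and in 5.89% of all windows, and TTCNNNGAA, the related motif with the shorter spacer, in 0 of the 7 and 7.04%. The AP-1 type motif TGACTCA was in the *C3ar1* window, at -22, and in 4.45% of all windows. These are matches of letters in a short window and say nothing of binding.

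The C1q chains were among the most abundant mRNAs of these cells, and the other members followed in a graded order. *C1qb* ranked between 11 and 37 among all genes of a library, *C1qc* between 13 and 48 and *C1qa* between 16 and 59. Together the 3 chains took 1.26% to 1.32% of all TPM in untreated WT, 1.76% to 2.04% in treated WT, 0.556% to 0.919% in untreated KI and 1.09% to 1.45% in treated KI libraries. In untreated WT microglia the mean TPM ran from *C1qb* (4900 ± 75.5, SD, n = 3 here and below) through *C1qc* (4319 ± 241), *C1qa* (3659 ± 90.2), *C3ar1* (595 ± 43.6), *C5ar1* (442 ± 139), *Itgam* (135 ± 33.1), *Cfp* (54.5 ± 8.47) and *C3* (25.5 ± 15.7) to *C4b* (1.21 ± 1.18). No neighbours in that order overlapped. After IL-4 the ranges of *Cfp*, *Itgam* and *C3* overlapped in WT microglia, and in KI those of *C5ar1*, *C3*, *Itgam* and *Cfp* overlapped from each to the next. The ranges of *C1qb* and *C1qc* overlapped in every group but untreated WT.

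**Figure D1:**
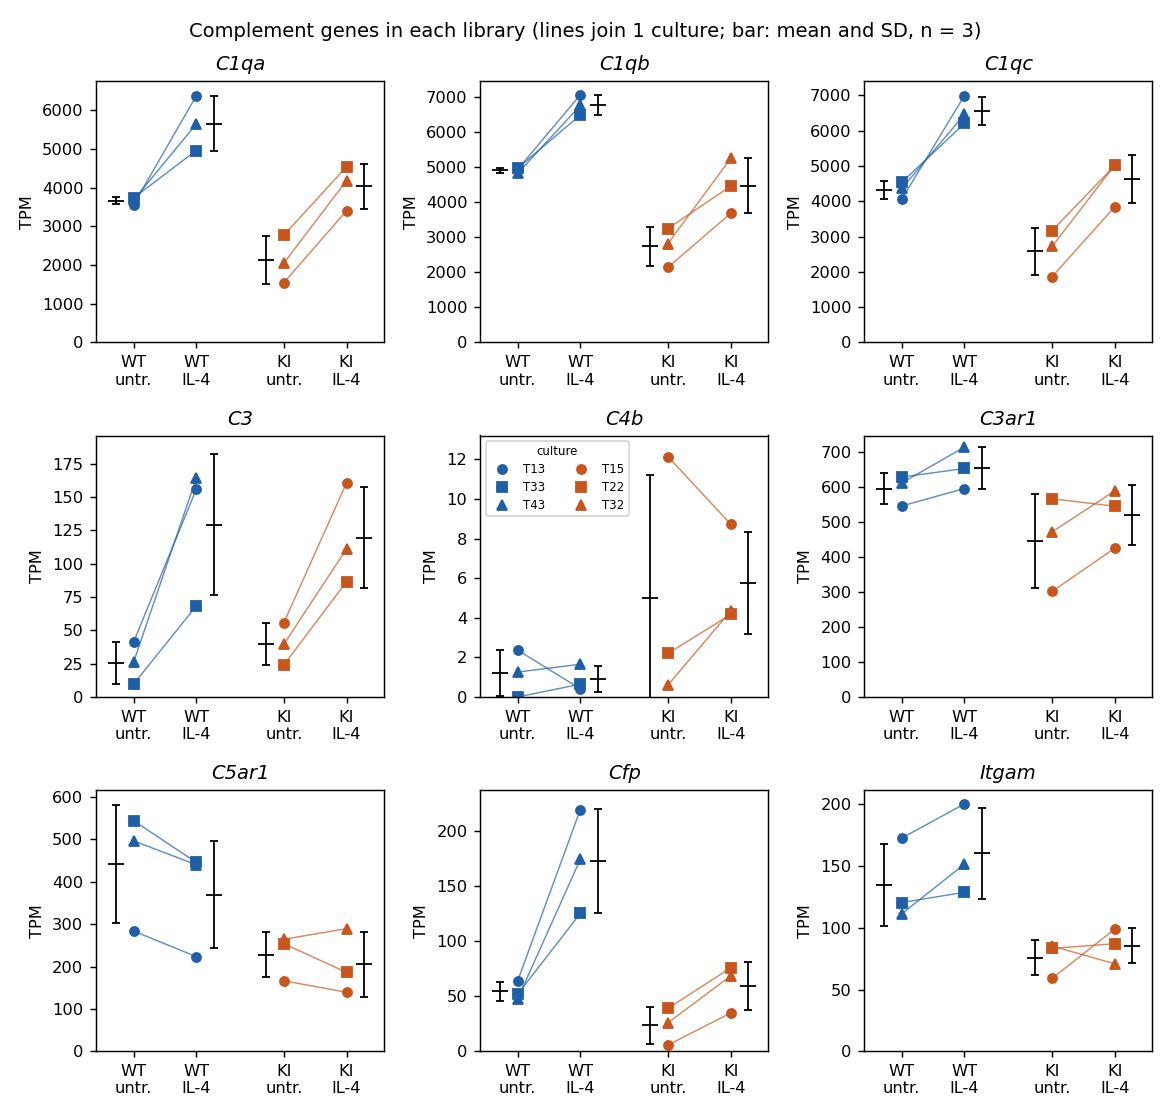
TPM of the 9 complement genes in each library, with a line joining the untreated and the IL-4-treated library of 1 culture and bars for the mean and SD of 3 cultures (cut off at 0 for *C4b*). The 3 C1q genes, *C3* and *Cfp* are higher with IL-4 in every culture, and the KI values of the C1q genes, *Cfp* and *Itgam* lie below the WT values of the same treatment.

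*C1qa*, *C1qb* and *C1qc*, whose products assemble into 1 molecule, followed the same course. *C1qa* read 3560, 3736 and 3682 TPM in the untreated WT libraries (cultures T13, T33 and T43, in this order throughout), and 6372, 4962 and 5644 TPM after IL-4. In KI (T15, T22 and T32, in this order throughout) it was at 1550, 2777 and 2056 TPM untreated and at 3406, 4545 and 4186 TPM after IL-4. IL-4 raised it in all 6 cultures, and the treated KI libraries spanned the level of untreated WT. *C1qb* was at 4926, 4959 and 4815 TPM in untreated and 7049, 6476 and 6747 TPM in treated WT cultures, and at 2141, 3244 and 2817 TPM in untreated and 3676, 4450 and 5240 TPM in treated KI cultures. *C1qc* was at 4059, 4536 and 4362 TPM in untreated and 6994, 6204 and 6457 TPM in treated WT, and at 1865, 3171 and 2723 TPM in untreated and 3846, 5014 and 5028 TPM in treated KI cultures. For all 3 chains every KI library lay below every WT library of the same treatment, and T15 was the lowest of the KI cultures under both conditions.

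With IL-4 the mean of *C1qa* was 1.55 times as high in WT and 1.90 times as high in KI microglia, that of *C1qb* 1.38 and 1.63 times, and that of *C1qc* 1.52 and 1.79 times. On the log2(TPM + 1) scale, averaged over genotypes, the differences were 0.79 for *C1qa* (SE 0.15), 0.59 for *C1qb* (SE 0.13) and 0.73 for *C1qc* (SE 0.14). Limma's F-test, which took the IL-4 effect and its interaction with genotype together over all 12 libraries, called *C1qa* (adjusted p = 0.0391) but not *C1qc* (adjusted p = 0.0531) or *C1qb* (adjusted p = 0.128). Since both libraries of a culture come from the same cells, the test was repeated with the culture as a replicate block, and limma then called all 3, with adjusted p-values of 0.000374, 0.0004 and 0.00168 for *C1qa*, *C1qc* and *C1qb*. With no block the calls depended on single cultures. Without T15 all 3 passed limma's F-test (adjusted p = 0.0133, 0.00758 and 0.0285 for *C1qa*, *C1qc* and *C1qb*), and with any other culture left out *C1qb* and *C1qc* did not. The call of *C1qa* was lost without T13, T33, T43 or T32 (limma, adjusted p = 0.160, 0.158, 0.257 and 0.234), under quantile normalization (0.179), with median-ratio scaling (0.187), with no expression filter (0.373) and with no variance trend (0.203).

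In KI microglia the C1q chains were at 55.8% to 59.9% of the WT mean when untreated and at 65.9% to 71.5% after IL-4. Averaged over treatments, *C1qb* was lower in KI by a log2 difference of -0.74 (SE 0.13, limma F-test, adjusted p = 0.0316). *C1qa*, at -0.65 (SE 0.15), and *C1qc*, at -0.64 (SE 0.14), did not pass the F-test of genotype with its interaction (adjusted p = 0.0651 and 0.0648, limma). With the culture as a random replicate block limma's F-test called *C1qb* (adjusted p = 0.0464), but not *C1qa* (0.0934) or *C1qc* (0.0929). In limma's test of the single averaged difference all 3 passed (adjusted p = 0.0221, 0.00962 and 0.0209 for *C1qa*, *C1qb* and *C1qc*), and with the culture as a random replicate block in addition they still did (0.0354, 0.0150 and 0.0351), a combination added after the data were seen. Without culture T15 the differences were -0.49, -0.59 and -0.47 and limma's F-test called *C1qb* (adjusted p = 0.0461), but not *C1qa* (0.137) or *C1qc* (0.0970). Without T22 it called all 3 (adjusted p = 0.0324, 0.0375 and 0.0472 for *C1qa*, *C1qb* and *C1qc*). The F-test call of *C1qb* was lost without T13, T33, T43 or T32 (limma, adjusted p = 0.0717, 0.181, 0.207 and 0.0597), under quantile normalization (0.0720), with no expression filter (0.246) and with no variance trend (0.104).

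The proportions of the 3 chain mRNAs were narrower than their levels. *C1qb* made up 31.8% to 39.3% of the summed C1q TPM over the 12 libraries, *C1qc* 32.4% to 35.8% and *C1qa* 27.1% to 32.4%. With IL-4 the ratio of *C1qa* to *C1qb* went up in all 6 cultures, in WT from 0.723 to 0.904, from 0.753 to 0.766 and from 0.765 to 0.837 in T13, T33 and T43. In KI it went from 0.724 to 0.927, from 0.856 to 1.02 and from 0.730 to 0.799 in T15, T22 and T32. The share of *C1qb* in the sum was lower with IL-4 in every culture, and the ratio of *C1qc* to *C1qb* was higher in 5 of 6. These ratios were looked at after the values were seen and were not tested, and the mean ratio of *C1qa* to *C1qb* in untreated microglia was 0.747 ± 0.0218 in WT and 0.770 ± 0.0746 in KI (SD, n = 3), less apart than the cultures.

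**Figure D2:**
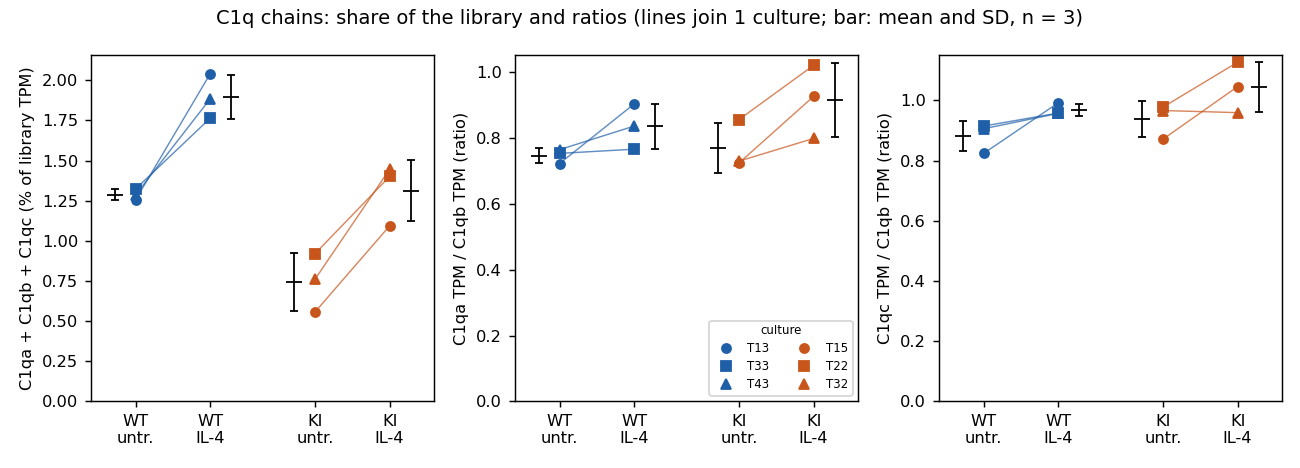
Summed TPM of the 3 C1q genes as a percentage of the library, and the ratios of *C1qa* and *C1qc* to *C1qb*, by library, with lines joining cultures and bars for the mean and SD of 3 cultures. The sum separates the genotypes within each treatment, whereas the ratios of both genotypes overlap and the first of them is higher with IL-4 in every culture.

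*C3*, the component on which all pathways converge, had the largest IL-4 response of the members. Untreated WT libraries held 41.0, 9.58 and 25.9 TPM and IL-4-treated WT libraries 156, 68.2 and 164 TPM. In KI cultures it was at 55.8, 24.1 and 39.6 TPM untreated and at 161, 86.5 and 111 TPM after IL-4. Treated and untreated libraries did not overlap in either genotype, whereas WT and KI did overlap within each treatment. The mean was 5.07 times as high with IL-4 in WT and 3.00 times as high in KI, and the log2 difference averaged over genotypes was 2.00 (SE 0.34, limma F-test, adjusted p = 0.0219, and 2.5e-05 with the culture as a block). By genotype the log2 difference was 0.35 (SE 0.34, limma F-test, adjusted p = 0.665). It was 0.76 in untreated and -0.057 in treated cultures (SE 0.48 each), a contrast that the interaction test did not call. Astrocytes, which can also make C3, left the most marker RNA in T13 among untreated WT and in T15 among untreated KI cultures, which also held the most *C3* of these untreated libraries. After IL-4 this was so in KI (T15) but not in WT, where T43 held the most *C3* with an astrocyte sum of 179 TPM, against 615 TPM in T13. Without T15 the IL-4 difference was 2.02 (limma F-test, adjusted p = 0.0195) and the genotype difference 0.094. With no block, the IL-4 call was lost without T43, T32 or T22 (limma, adjusted p = 0.204, 0.102 and 0.0564), with no expression filter (0.321) and with no variance trend (0.125). The part of astrocyte RNA in the untreated level of *C3* was not tested.

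*Cfp*, which encodes properdin, increased with IL-4 in each culture and was the member with the largest difference toward lower values in KI. Its level was 64.0, 51.9 and 47.7 TPM in untreated and 219, 125 and 174 TPM in treated WT cultures. In KI it was at 5.83, 39.0 and 26.0 TPM in untreated and 34.9, 75.8 and 68.4 TPM in treated cultures. Every KI library lay below every WT library of its treatment, and T15 was far below the other KI cultures. The IL-4 difference of 1.59 (SE 0.36) did not pass limma's F-test (adjusted p = 0.142), but did with the culture as a block (adjusted p = 0.00126). With no block it passed without T15 (1.39, limma F-test, adjusted p = 0.00298), and with any other culture left out it did not. The mean level in KI was 43.3% of WT untreated and 34.5% after IL-4. The genotype difference of -1.53 (SE 0.36) did not pass limma's F-test (adjusted p = 0.0886, and 0.119 with the culture as a random block). It passed the test of the averaged difference, alone (adjusted p = 0.0273) and with the random block (adjusted p = 0.0393). Without T15 it was -0.98 (limma F-test, adjusted p = 0.0696), and without T22 it was -1.89 and passed the F-test (limma, adjusted p = 0.0451).

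*C4b*, the gene of complement C4, was near the lower end of what the table holds. Its level was 2.36, 0 and 1.26 TPM in untreated and 0.416, 0.643 and 1.65 TPM in treated WT cultures, and at 12.1, 2.20 and 0.608 TPM in untreated and 8.73, 4.17 and 4.35 TPM in treated KI cultures. Only in treated cultures did all KI values exceed all WT values, and T15 was the highest. Neither the genotype difference of 1.43 (SE 0.53, adjusted p = 0.296) nor the IL-4 difference of 0.28 (SE 0.53, adjusted p = 1.00) passed limma's F-test, and without T15 the former was 0.86 (adjusted p = 0.548). Its near-identical copy *C4a* held 4.59 and 7.72 TPM in the untreated and treated libraries of T32 and at most 1.38 TPM elsewhere, so that the division of reads between these genes is uncertain. The sum of both was 0 to 2.42 TPM in untreated WT, 0.438 to 3.04 TPM in treated WT, 2.24 to 12.2 TPM in untreated KI and 4.22 to 12.1 TPM in treated KI libraries.

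None of the 3 receptor genes passed the test of IL-4, with or without the block. *Itgam* was at 173, 120 and 111 TPM in untreated and 200, 129 and 152 TPM in treated WT cultures. In KI it was at 59.2, 83.4 and 85.2 TPM in untreated and 99.0, 87.1 and 70.9 TPM in treated cultures. KI lay below WT without overlap under both conditions, at 56.3% of the WT mean untreated and 53.5% after IL-4. The genotype difference was -0.85 (SE 0.16, limma F-test, adjusted p = 0.0408). It did not pass with the culture as a random block (adjusted p = 0.0766) or with any 1 culture left out (adjusted p from 0.0676 to 0.188, and -0.82 with 0.0845 without T15), but did in the test of the averaged difference with that block (adjusted p = 0.0264). For IL-4 the difference was 0.21 (SE 0.16, limma F-test, adjusted p = 0.987), with 5 of 6 cultures higher.

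*C5ar1*, the receptor of C5a, was at 284, 544 and 497 TPM in untreated and 224, 446 and 440 TPM in treated WT cultures, and at 167, 254 and 264 TPM in untreated and 139, 186 and 289 TPM in treated KI cultures. It was the only member that was lower with IL-4 in most cultures, in 5 of 6, and WT culture T13 was near the KI values. The IL-4 difference was -0.23 (SE 0.24, limma F-test, adjusted p = 0.999). By genotype it was -0.88 (SE 0.24), which did not pass limma's F-test (adjusted p = 0.139), passed the test of the averaged difference (adjusted p = 0.0463) and did not with the block added (adjusted p = 0.0637). Without T13 it was -1.19 and passed the F-test (limma, adjusted p = 0.0283), and without T15 it was -0.66 and did not (0.374). *C3ar1*, the receptor of C3a, was at 546, 628 and 612 TPM in untreated and 596, 653 and 714 TPM in treated WT cultures, and at 302, 566 and 472 TPM in untreated and 425, 545 and 589 TPM in treated KI cultures. Its genotypes overlapped in untreated cultures, whereas after IL-4 every KI value lay below every WT value. Neither the genotype difference of -0.40 (SE 0.15, adjusted p = 0.308) nor the IL-4 difference of 0.19 (SE 0.15, adjusted p = 0.983) passed limma's F-test, and without T15 the former was -0.20 (adjusted p = 0.596).

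Counted over the 9 members, limma's F-test called 2 higher with IL-4 (*C1qa* and *C3*), against 0.75% of the 11204 genes tested, and 0 lower, against 0.143%. With the culture as a fixed block it called 5 higher (*C1qa*, *C1qb*, *C1qc*, *C3* and *Cfp*), against 1.79% of all genes. The same 5 were higher with IL-4 in every culture, as were 5.73% of all genes. By genotype 2 members were called lower in KI (*C1qb* and *Itgam*), against 0.357% of all genes, and 0 higher, against 1.29%. Of all genes called by genotype 78.4% were higher in KI, and 61.6% under quantile normalization or 67.7% under median-ratio scaling. With the culture as a random block the F-test called 1 member by genotype (*C1qb*), and 77 of the 11204 genes in either direction. In the test of the averaged difference 6 were lower (the C1q genes, *C5ar1*, *Cfp* and *Itgam*), against 1.19% of all genes, and 5 with the random block added (the C1q genes, *Cfp* and *Itgam*), against 0.732%. The same 5 had all KI libraries below all WT libraries in both treatments, as had 1.23% of all genes. The median log2 difference of the members was 0.59 for IL-4 and -0.65 for genotype, against 0.043 and 0.13 over all genes tested. These counts are of few genes of which 3 share a locus, and they describe the members without setting them against other lists.

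**Figure D3:**
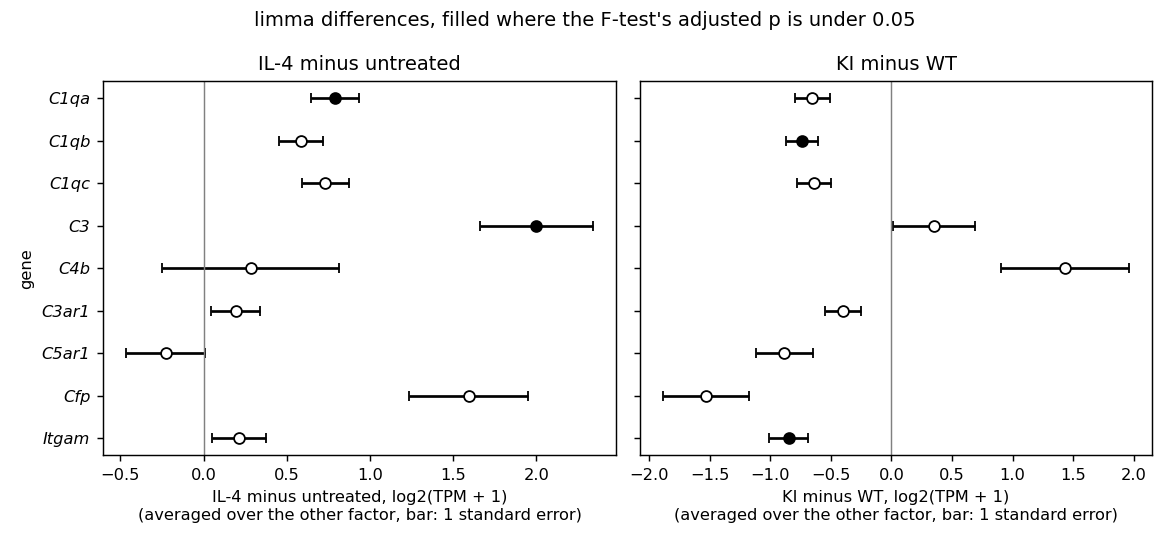
Log2(TPM + 1) differences of the 9 members, IL-4 minus untreated on the left and KI minus WT on the right, each averaged over the other factor, with bars of 1 standard error from limma and filled points where the F-test's adjusted p was under 0.05. *C3* and *Cfp* lie farthest to the right for IL-4, *Cfp* lies farthest to the left for genotype, and *C3* and *C4b* alone lie right of 0 there.

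Whether the response to IL-4 differed between genotypes was tested by the interaction. In log2 terms the C1q genes went up by 0.62, 0.46 and 0.60 in WT and by 0.96, 0.71 and 0.86 in KI microglia (*C1qa*, *C1qb* and *C1qc*), *C3* by 2.41 in WT and 1.59 in KI, and *Cfp* by 1.62 and 1.57. The interaction passed limma's test for 0 of the 9 members, with adjusted p-values of 1.00 for every one and from 0.969 to 0.997 with the culture as a block, and for 0 of all genes (0%). At an unadjusted p under 0.05 it was past for 0 members and for 3.19% of all genes. The interaction differences were 0.34 for *C1qa* (SE 0.29) and -0.81 for *C3* (SE 0.67).

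Since the microglial markers had lower means in KI, the genotype differences were also taken relative to the mean of those 18 markers, a list that holds no complement gene. On that scale the C1q genes differed by -0.082, -0.17 and -0.068 (*C1qa*, *C1qb* and *C1qc*), *Itgam* by -0.27, *C5ar1* by -0.31 and *C3ar1* by 0.17. The SEs were 0.15 to 0.29, and none of these passed limma's F-test (adjusted p from 0.349 to 0.926). *Cfp* kept a difference of -0.96 (SE 0.28, limma F-test, adjusted p = 0.0538). *C3*, at 0.92 (SE 0.35, adjusted p = 0.0848), and *C4b*, at 2.01 (SE 0.59, adjusted p = 0.0541), did not pass limma's F-test either. On this scale the F-test called 0 members lower in KI, against 0.107% of all genes, and 0 higher, against 20.5%, since every gene was set against a mean that itself differed by -0.57. The test of the averaged difference on this scale, added after the data were seen, called *Cfp* lower (limma, adjusted p = 0.0186), against 0.196% of all genes, and *C3* and *C4b* higher (limma, adjusted p = 0.0481 and 0.0187), against 40.1%. The call of *C4b* carries no weight, since that gene passed the expression limit through its KI libraries. For IL-4, where the marker mean differed by -0.051, the F-test called 3 members higher, *C1qa*, *C3* and *Cfp* (limma, adjusted p = 0.0344, 0.0193 and 0.0215), against 0.589% of all genes.

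**Figure D4:**
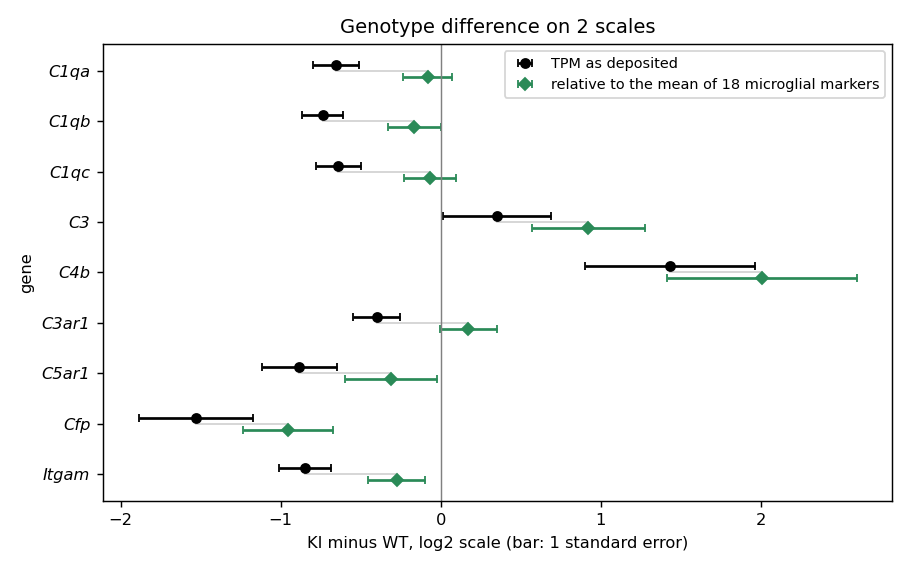
KI minus WT difference of each member on the log2 scale, from TPM as deposited (circles) and relative to the mean of 18 microglial markers (diamonds), with bars of 1 standard error from limma. The diamonds of the 3 C1q genes lie near 0, at -0.082, -0.17 and -0.068, and that of *Cfp* at -0.96.

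The partners of the members in the cascade were described by a list of 48 other complement genes, of which 15 passed the expression limit, 21 stayed below 1 TPM in every library and 11 were listed at 0 throughout. Of 14 genes of the C1 proteases, the lectin pathway, C2 and *C4a*, 2 passed the limit, and the C1 protease gene *C1s1* did not exceed 8.72 TPM. Of 7 genes of the terminal pathway, which forms the membrane attack complex, only *C8g* passed it, and *C6*, *C7*, *C8b* and *C9* were listed at 0 in every library. Of the alternative pathway, *Cfb*, which encodes factor B of the C3 convertase, did not exceed 2.60 TPM, and *Cfd*, which encodes the protease that cleaves factor B, was listed at 0 throughout. These genes were singled out after their values were seen.

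Among the 15 that passed the limit, limma's F-test called *Itgax* for IL-4 and none for genotype. *Itgax* encodes CD11c, the α chain of complement receptor 4, and was at 0 to 3.77 TPM in untreated WT, 34.1 to 54.6 TPM in treated WT, 1.35 to 2.61 TPM in untreated KI and 12.6 to 31.1 TPM in treated KI libraries. Its log2 difference with IL-4 was 3.63 (SE 0.38, limma F-test, adjusted p = 0.00056) with an increase in each culture. *Itgb2*, whose β2 chain pairs with both CD11b and CD11c, was at 323 to 325 TPM in untreated WT, 420 to 483 TPM in treated WT, 153 to 251 TPM in untreated KI and 271 to 396 TPM in treated KI libraries. Its IL-4 difference of 0.56 (SE 0.13) passed limma's F-test only with the culture as a block (adjusted p = 0.182 without and 0.00774 with it). By genotype *Itgb2* differed by -0.58 (SE 0.13), with every KI library below every WT library of its treatment. This did not pass limma's F-test (adjusted p = 0.0791). It passed the test of the averaged difference, alone (limma, adjusted p = 0.0258) and with the random block (0.0385). Relative to the microglial markers it was -0.0066 (SE 0.18). The ratio of *Itgam* to *Itgb2* was lower with IL-4 in 5 of 6 cultures, and that of *Itgax* to *Itgb2* was higher in all 6, from at most 0.0117 untreated to at least 0.0467 treated.

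*Clu*, which encodes clusterin, an inhibitor of the terminal complex that astrocytes make in quantity, was at 1008 and 767 TPM in T15 and at 50.1 to 402 TPM in the other libraries. Its genotype difference of 1.71 (SE 0.56, limma F-test, adjusted p = 0.239) was 0.94 without T15. *Calr* and *C1qbp*, whose proteins can bind C1q, did not pass the test of genotype (adjusted p = 0.348 and 0.846, limma's F-test). Relative to the microglial markers the F-test called 3 of the 15 genes past the limit higher in KI, against 20.5% of all genes. They were *Clu*, *Serping1* and *Calr* (limma, adjusted p = 0.0326, 0.0335 and 0.0367). The averaged test on that scale called 5, adding *C5ar2* and *C1qbp* (limma, adjusted p = 0.0175 and 0.0386), against 40.1% of all genes. *Serping1*, at means of 0.987 and 0.779 TPM in untreated and treated WT, passed the limit through its KI libraries. Over the 15 genes the median difference was 0.25 for IL-4 and 0.23 for genotype.

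**Figure D5:**
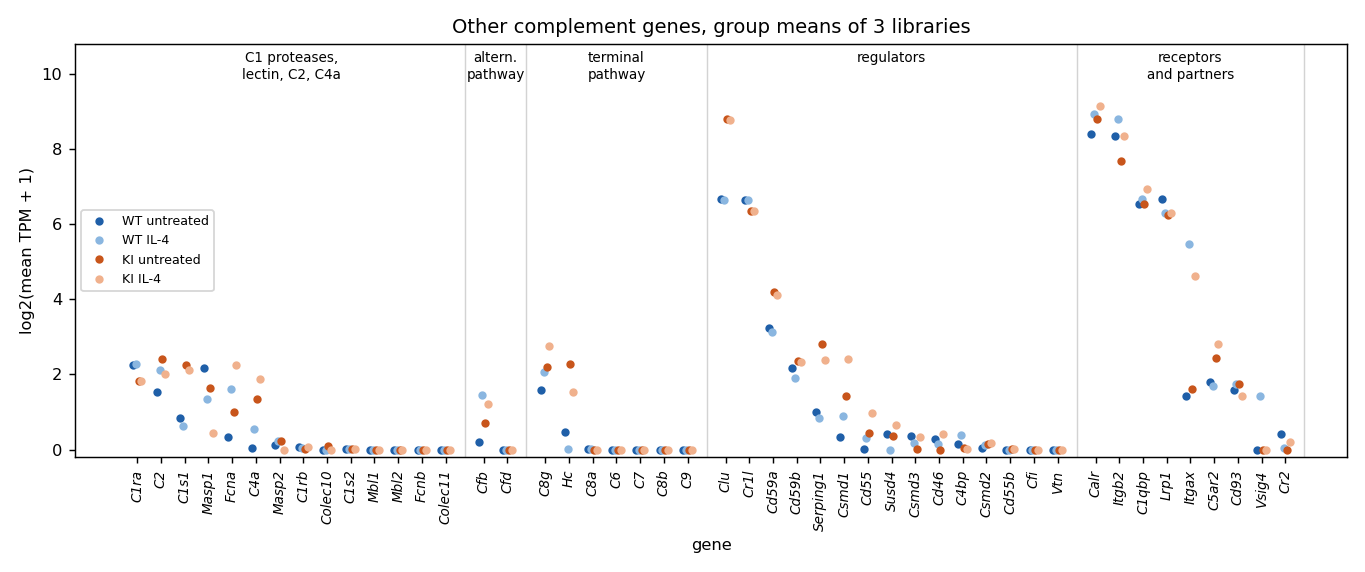
Mean level of the other complement genes reported here, as log2(mean TPM + 1) of the 3 libraries of each group, ordered by stage of the cascade. The points of the C1 proteases and of the terminal pathway stay at the foot of the plot, whereas *Clu*, *Calr* and *Itgb2* stand high, and *Itgax* differs most between untreated and treated groups.

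Across the 12 libraries the members fell into patterns, given here as Pearson correlations of log2(TPM + 1) that describe libraries of 4 groups sharing genotype, treatment and culture. *C1qa* and *C1qc* had r = 0.992, *C1qb* and *C1qc* 0.977, and *Cfp* had 0.970 with *C1qc*, although it lies on another chromosome. *C3* had 0.382 with *C1qc*, and *C4b* had negative values with the C1q genes, from -0.54 to -0.43. The genes most like the mean C1q profile among all non-members were *Rab3il1* (0.979), *Gpr65* (0.978), *Gpr183* (0.974), *Lat2* (0.972) and *Tbxas1* (0.965). All 5 were higher with IL-4 and lower in KI on average, which their choice by likeness to C1q made likely. Those most like *C3* were *Clec4a3* (0.961), *Fchsd2* (0.946), *Wdfy2* (0.939), *Ppp1r21* (0.933) and *Socs1* (0.929), of which *Socs1* was higher with IL-4 by 4.25 on the log2 scale. Most like *Itgam* were *Oas1a* (0.942), *Ly86* (0.938), *Psmb9* (0.936), *Lpcat2* (0.926) and *Syngr2* (0.910), and most like *C4b* were *Hist1h2bc* (0.942), *Kif1bp* (0.928), *Yipf5* (0.924), *Higd1a* (0.914) and *Ryk* (0.911).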

How the data were processed

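Polyadenylated RNA of the 12 libraries was sequenced after SMART-Seq v4 amplification. Trim Galore, Salmon on ENSEMBL GRCm38 and tximport were run by the authors (versions not given in the sources used here), who deposited TPM, scaled to 1000000 per library. The members and lists were chosen with earlier results of these data known. Genes were matched by identifier to the GRCm38 annotation. Values were taken as log2(TPM + 1), where the pseudocount of 1 understates changes of low genes, and 11204 genes with a mean above 1.5 were fitted with limma 3.58.1 (R 4.3.3, variance trend) on genotype, IL-4 and their interaction, with Benjamini-Hochberg adjustment over all of them and a threshold of 0.05. The authors' count test was not repeated, since counts were not used here. Summaries were made in Python 3.11.15 (pandas 2.3.3). Pairing of untreated and treated libraries comes from the culture number in the sample names. Deviations from group means correlated between the libraries of a culture at 0.0792 to 0.378. The highest correlation with another culture was lower for 5 cultures (by little for T32, T33 and T43) and higher for T22 (0.188, against 0.121). For IL-4 and the interaction the culture entered as fixed block, for genotype as random block (correlation 0.198). Ignoring it counts the libraries of a culture as independent for genotype. The fit was tested on simulated data of 11204 genes, 200 of them shifted by 2 (log2). It recovered 71.5% (genotype), 74.5% (IL-4) and 35% (interaction), with 2.05%, 5.70% and 10.3% of calls false. The simulated libraries were drawn independently, with no link between those of a culture, and fitted with no block. These rates therefore do not cover that dependence, nor the smaller differences of most members. Genes named beside the members were the other complement genes past the threshold, the 5 most abundant of the rest and the 5 genes most correlated with C1q, *C3*, *C4b* and *Itgam*, besides genes said to be singled out. Some items are not reported here.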

Additional observations from a re-analysis of the deposited data

How the results depend on the processing

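For IL-4, where 2 of 9 were called, 5 were called with the culture as a fixed replicate block or with the test of the averaged difference. It was 3 with a pseudocount of 0.1, a filter at 3 or relative to the microglial markers, and 1 under quantile normalization or with median-ratio scaling. It was 0 with no expression filter or with no variance trend. For the difference within 1 genotype, taken from the fit to all 12 libraries with its shared spread, 1 was called in WT and 0 in KI. Leaving out each culture gave 0 to 5, with 5 without T15, 1 without T13, T33 or T22 and 0 without T43 or T32. For genotype, where 2 were called, 6 were called with the test of the averaged difference, 5 with that test and the random replicate block and 3 with that test relative to the microglial markers (both added after seeing the data). It was 2 with a filter at 3 or median-ratio scaling, and 1 with a pseudocount of 0.1, quantile normalization or the random replicate block. For the difference within untreated cultures, again from the fit to all 12 libraries, 1 was called. The count was 0 with no expression filter, no variance trend, relative to the microglial markers or for the difference within IL-4-treated cultures. Leaving out each culture gave 0 to 4, with 4 without T22, 1 without T13 or T15 and 0 without T33, T43 or T32. The interaction was called for 0 members throughout. The causes of these changes were not tested, beyond fewer libraries in the fits that left cultures out.

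Over all genes, genotype calls were 185, against 16 with no filter, 26 with no trend, 77 with the random block, 575 with the averaged test, 333 with both, 2309 relative to the markers (4512 there with the averaged test), 102 and 2 for the differences within untreated and within treated cultures, and 3, 16, 49 and 99 without T33, T43, T15 and T32. IL-4 calls were 100, against 240 with the fixed block, 151 with the averaged test, 61 with no filter, 50 with no trend, 64 and 45 for the differences within WT and within KI, and 56, 51, 46 and 65 without T13, T33, T43 and T32. The median genotype difference of all genes was 0.13, with -0.063 under quantile normalization and 0.018 under median-ratio scaling.

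Of the single differences, 1 for IL-4, 4 for genotype and 12 for the interaction changed sign, none of them past the threshold. These were the IL-4 difference of *C4b* within WT (-0.10) and the genotype differences of *C3* within treated cultures (-0.057) and without T33 (-0.13, the range over cultures left out being -0.13 to 0.66) and of *C3ar1* relative to the markers (0.17 in both tests). The interaction changed sign relative to the markers for *C3ar1* (-0.10) and *C5ar1* (-0.14), and under quantile normalization for *Cfp* (0.12) and *Itgam* (0.045). With a culture left out it ran from -0.0025 (without T15) to 0.27 for *C3ar1*, from -0.082 (without T32) to 0.21 for *C5ar1*, from -0.47 to 0.26 for *Cfp* (above 0 without T13, T43, T22 or T32) and from -0.35 to 0.15 for *Itgam* (above 0 without T43 or T32).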
